A study of Sus scrofa with 10 samples.

Results

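The ovarian WNT genes described here are 5 ligands (WNT2B, WNT4, WNT5A, WNT6 and WNT11), the R-spondin RSPO1 and its receptor LGR4, the frizzled receptors FZD1 and FZD4, and the secreted antagonist SFRP1. They were taken by symbol from the gene table of 43499 loci, of which 19972 were protein-coding. Symbols identified 9 of the 10 genes, each at 1 protein-coding locus, and WNT4 was found by its description because the table names that locus ENSSSCG00000003521. Ovary RNA of 10 gilts (young sows that have not farrowed) was sequenced, with 1 library per pig. All gilts shared a genetic background and had altrenogest, a progestin, in their feed for 18 days (20 mg daily, begun at 210 days of age), followed by 2 days without it. Afterwards, 5 gilts were injected with 1000 IU of recombinant pig follicle-stimulating hormone (rpFSH treatment group) and 5 with saline (control group). Ovaries were taken at 234 days of age and frozen once the follicles on their surface had been removed, so follicles of the surface are not part of the measured tissue.

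WNT proteins are secreted, lipid-bearing signals that bind frizzled receptors. With the co-receptors LRP5 or LRP6 they stabilise beta-catenin, which then acts with TCF and LEF factors on target genes, whereas ligands such as WNT5A and WNT11 mostly signal without beta-catenin. R-spondins bind LGR receptors and keep the ligases ZNRF3 and RNF43 from removing frizzled proteins, and secreted frizzled-related proteins such as SFRP1 bind WNT proteins outside the cell. In the ovary, RSPO1 and WNT4 are known for their part in female gonad development, and WNT signals act in follicle growth and in the corpus luteum.

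None of the 10 WNT genes passed the test between the groups. All 10 were among 15170 protein-coding loci whose mean FPKM (fragments per kilobase of transcript, scaled by sequencing depth) was at least 0.1 and that were tested with the quasi-likelihood test of edgeR on the deposited counts. Their adjusted p was 1.00 in each case after Benjamini-Hochberg adjustment over all tested loci, and 0 of 10 were called, beside 0 of all tested loci (0%). At an unadjusted p under 0.05, 0 of 10 were called against 722 of all tested loci (4.76%). By direction, the share of all tested loci was 1.54% for higher and 3.22% for lower with rpFSH, and 0 of the 10 genes were called in either. With the study's own limits of p under 0.05 and a log2 fold change above 1 or below -1, 0 of 10 were called against 3.09% of all tested loci. FPKM of the groups overlapped for 10 of 10, whereas the groups did not overlap for 0.626% of all tested loci. The log2 fold change was below 0 for 6 of the genes and above 0 for 4, with a median of -0.02, against a median of -0.01 over all tested loci. DESeq2 gave 917 of the tested loci an unadjusted p under 0.05 and 86 an adjusted p under 0.05, and none of the 10 genes was among either.

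**Figure D1:**
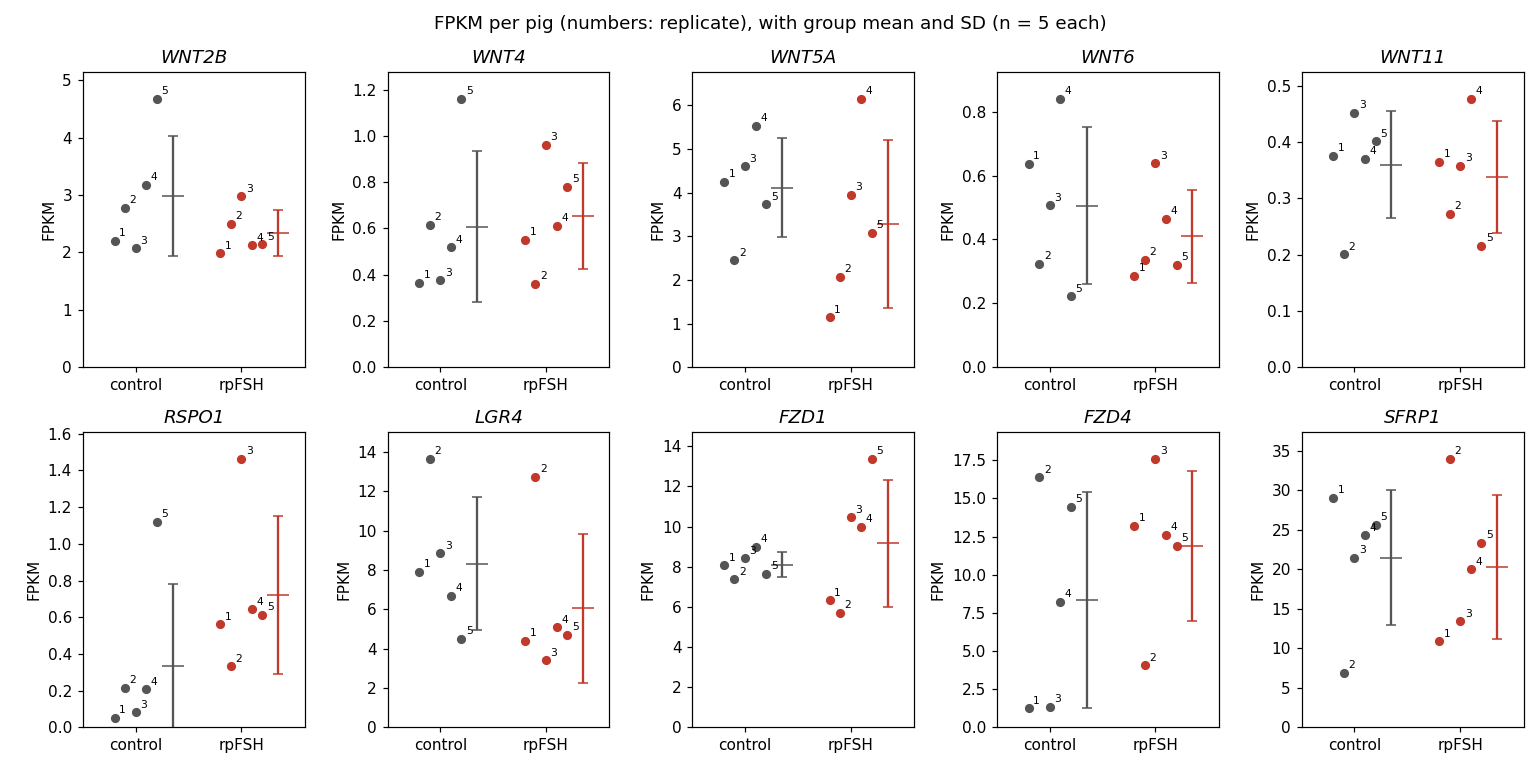
FPKM of the 10 WNT genes in each pig, with 1 panel per gene, a linear axis from 0, control pigs in grey and rpFSH pigs in red, and the replicate number beside each point. Bars give the mean and SD of 5 pigs (the bar of RSPO1 in the control group is cut at 0), and in every panel the groups overlap.

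The libraries held between 64873797 and 75114003 counts. Among the cell type markers, the summed FPKM of 5 luteal markers was 2724 in control pig 2, 1422 in rpFSH pig 1 and 349.5 in rpFSH pig 4, and lay between 17.5 and 62.5 in the other 7 pigs. CYP11A1 made up most of the sum in control pig 2 (1758) and rpFSH pig 1 (787). STAR, CYP11A1, PTGFR and SCARB1 were each highest in the 3 named pigs. LHCGR differed, with 7.32 in rpFSH pig 1 but 2.74 in control pig 2, below control pig 3 (4.01) and rpFSH pig 2 (5.18). Markers of an oviduct-type epithelium (8 genes) summed to 54.0 in control pig 2 and 110 in control pig 5, to between 11.06 and 16.9 in the other controls and to between 6.21 and 9.18 in the rpFSH pigs. That these ranges did not overlap rested on MAL2. The other 7 genes summed to 40.0 in control pig 2 and 105 in control pig 5, to between 5.61 and 7.13 in the other controls and to between 4.38 and 6.87 in the rpFSH pigs. OVGP1 made up much of the sum in control pigs 2 and 5 (20.6 and 63.6 FPKM), and its locus also carries the name WDR77. CCDC39 stayed between 1.64 and 3.51 FPKM in all pigs. Smooth muscle markers reached 1789 in control pig 5, against at most 484 in the other pigs. No marker of the granulosa, theca, stroma or oocyte lists was at 0 in all pigs, with 5 of 7, 4 of 4, 5 of 5 and 5 of 5 listed genes found. Fewer cells of a type and less RNA per cell cannot be told apart in these whole-tissue libraries.

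**Figure D2:**
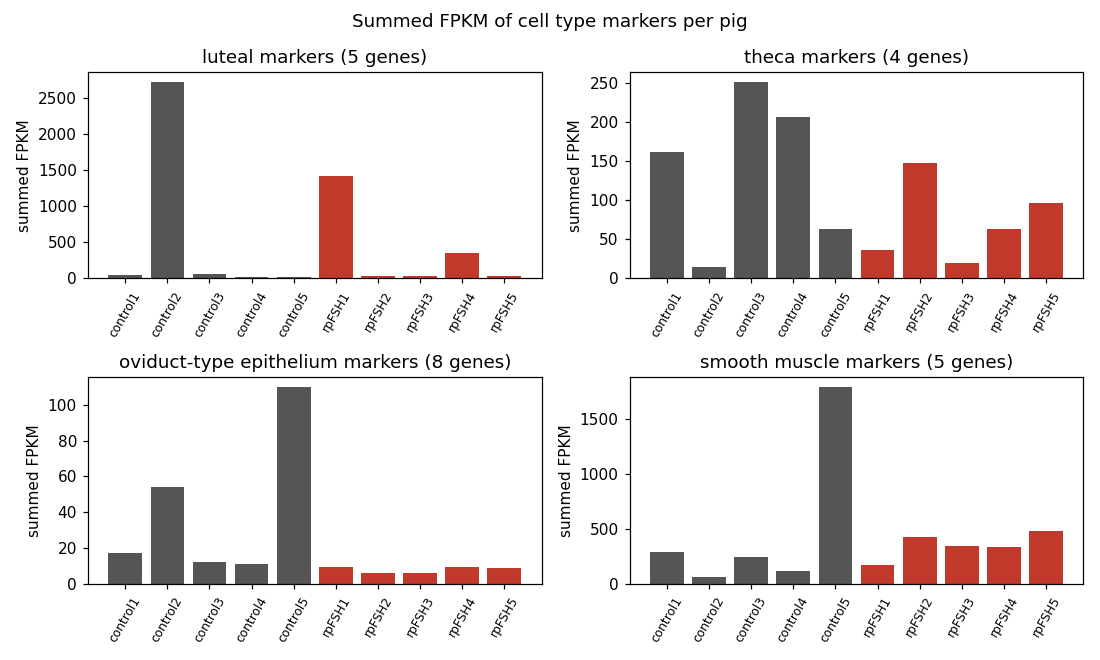
Summed FPKM of luteal, theca, oviduct-type epithelium and smooth muscle markers in each pig (grey, control; red, rpFSH; linear axes from 0). Luteal markers stand out in control pig 2 and rpFSH pig 1, oviduct-type markers in control pigs 2 and 5, and smooth muscle markers in control pig 5.

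WNT5A and WNT2B had the highest mean FPKM of the 5 ligands described. In counts WNT2B came first, with 3289 to 8561 per pig against 675 to 3435 for WNT5A. Of the summed FPKM of the 5 ligands, WNT5A took 45.8% ± 11.2 and WNT2B 35.3% ± 9.13, followed by WNT4 with 8.36% ± 3.25, WNT6 with 5.93% ± 1.79 and WNT11 with 4.66% ± 1.54 (SD, n = 10 pigs). Of the summed FPKM of all 19 listed ligands, WNT5A and WNT2B together took 40.5% ± 8.12, with a range from 28.8 to 54.3% over the pigs.

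WNT5A, a ligand that mostly signals without beta-catenin, lies on chromosome 13 (37344680 to 37366942, minus strand, Sscrofa11.1). Its FPKM in control pigs 1 to 5 was 4.25, 2.45, 4.60, 5.53 and 3.73. In rpFSH pigs 1 to 5 it was 1.15, 2.08, 3.95, 6.15 and 3.08. Both the lowest and the highest pig belonged to the rpFSH treatment group, and the controls lay between rpFSH pigs 2 and 4. Means of control and rpFSH pigs were 4.11 ± 1.14 and 3.28 ± 1.92 (SD, n = 5 per group, as for each pair of means that follows; p = 0.413 by a two-sided exact permutation test). On the log2 scale the fold change was -0.25 (SE 0.40, 95% interval -1.14 to 0.63, edgeR unadjusted p = 0.537). It was -0.03 without rpFSH pig 1, -0.13 without rpFSH pig 2 or without control pig 4, -0.39 without control pig 2 and -0.60 without rpFSH pig 4. The 3 lowest pigs included control pig 2 and rpFSH pig 1, which had the highest sums of luteal markers (2724 and 1422 FPKM). The other low pig, rpFSH pig 2, had a luteal sum of only 35.3. WNT5A was highest in rpFSH pig 4, which had the next highest luteal sum (349.5). The part of luteal cells in the result was not tested.

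WNT2B, a ligand of the beta-catenin branch, lies on chromosome 4 (107899655 to 107922020, minus strand). Control pigs 1 to 5 had FPKM of 2.20, 2.77, 2.07, 3.18 and 4.68, and rpFSH pigs 1 to 5 had 1.99, 2.50, 2.98, 2.12 and 2.14. Control pig 5 was the highest, and 8 of the other 9 pigs lay between 1.99 and 2.98. Group means were 2.98 ± 1.05 and 2.35 ± 0.400 (two-sided exact permutation test, p = 0.262). Its log2 fold change was -0.27 (SE 0.23, 95% interval -0.77 to 0.24, edgeR unadjusted p = 0.273), and it was -0.05 without control pig 5, -0.28 without control pig 2 and 0.0020 without both. The locus lies wholly within the span of ST7L on the opposite strand. ST7L stayed between 2.57 and 3.44 FPKM and was lowest but 2 in control pig 5, where WNT2B was highest.

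WNT4, which takes part in early ovary development, lies on chromosome 6 (80112277 to 80138053, minus strand) and was counted 71 to 249 times per pig. Its FPKM was 0.365, 0.615, 0.376, 0.518 and 1.16 in control pigs 1 to 5 and 0.551, 0.361, 0.963, 0.610 and 0.780 in rpFSH pigs 1 to 5. Of the rpFSH pigs, 4 lay above the control median, and the highest pig of all was control pig 5. The means of 0.607 ± 0.327 and 0.653 ± 0.229 gave p = 0.817 by the two-sided exact permutation test, and the log2 fold change was 0.19 (SE 0.39, 95% interval -0.68 to 1.06, edgeR unadjusted p = 0.641).

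WNT6 is a ligand best known from epithelia, at chromosome 15 (120901283 to 120917398, plus strand), with 36 to 132 counts per pig. The controls had FPKM of 0.638, 0.324, 0.507, 0.841 and 0.222, and the rpFSH pigs had 0.287, 0.337, 0.639, 0.464 and 0.321. Controls 4 and 5 were the highest and the lowest of the 10 pigs, so that all rpFSH pigs lay within the control range. Means were 0.506 ± 0.247 and 0.410 ± 0.145 (two-sided exact permutation test, p = 0.500), with a log2 fold change of -0.22 (SE 0.42, 95% interval -1.14 to 0.70, edgeR unadjusted p = 0.610). The whole locus lies within CFAP65 on the opposite strand. CFAP65, a gene of motile cilia, had 5.49 FPKM in control pig 5 and 2.32 in control pig 2 and at most 0.112 in the other pigs, while WNT6 was at its lowest in control pig 5.

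WNT11, a ligand known for cell movement and planar polarity, lies on chromosome 9 (10411902 to 10431405, minus strand). It was the lowest of the 10 genes in mean FPKM, with 83 to 187 counts per pig. FPKM was 0.376, 0.201, 0.452, 0.371 and 0.401 in control pigs 1 to 5 and 0.365, 0.272, 0.358, 0.477 and 0.216 in rpFSH pigs 1 to 5. The groups covered nearly the same range. Group means of 0.360 ± 0.0947 and 0.338 ± 0.0997 gave p = 0.722 by the two-sided exact permutation test, and the log2 fold change was -0.03 (SE 0.31, 95% interval -0.71 to 0.65, edgeR unadjusted p = 0.924).

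RSPO1, the R-spondin of ovary development, had the largest fold change of the 10 genes and the widest spread. It lies on chromosome 6 (93665749 to 93690660, minus strand) and was counted only 8 to 199 times per pig. Control pigs 1 to 5 had FPKM of 0.0537, 0.216, 0.0832, 0.209 and 1.12. In rpFSH pigs 1 to 5 it was 0.561, 0.333, 1.46, 0.644 and 0.614. All 5 rpFSH pigs lay above 4 of the 5 controls, and control pig 5 lay above 4 of the 5 rpFSH pigs. Means were 0.336 ± 0.444 for the controls and 0.723 ± 0.431 for the rpFSH pigs (two-sided exact permutation test, p = 0.206). The edgeR fit gave a log2 fold change of 1.17 (SE 0.77, 95% interval -0.53 to 2.88, edgeR unadjusted p = 0.157). The interval runs from 0.691-fold to 7.37-fold, so that neither no difference nor a several-fold one lay outside it. Without control pig 5 the log2 fold change was 2.40 (edgeR unadjusted p = 0.00243, adjusted p = 0.999), and without rpFSH pig 3 it was 0.73 (unadjusted p = 0.377). Control pig 5 had the highest sums of oviduct-type, surface epithelium (41.1 FPKM, against at most 16.0 elsewhere) and smooth muscle markers, and the part of these cells in its RSPO1 level was not tested. In rpFSH pig 3, which had the highest RSPO1, these sums were 6.28, 2.99 and 344 FPKM. Control pig 2 was second for both epithelial sums (54.0 and 16.0) and had RSPO1 at 0.216 FPKM. Across the 10 pigs the level ranged 27.2-fold, and the coefficient of variation (86.9%) was above that of 88.9% of all tested loci.

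LGR4, the receptor that binds R-spondins, is on chromosome 2 (32871904 to 32979148, plus strand). FPKM in control pigs 1 to 5 was 7.91, 13.6, 8.85, 6.70 and 4.49. The values of rpFSH pigs 1 to 5 were 4.39, 12.7, 3.40, 5.09 and 4.71. A single rpFSH pig, pig 2, was above the control median, while the other 4 lay between 3.40 and 5.09. Means were 8.32 ± 3.39 and 6.06 ± 3.78 (two-sided exact permutation test, p = 0.357), and the log2 fold change was -0.38 (SE 0.40, 95% interval -1.26 to 0.50, edgeR unadjusted p = 0.366). Without rpFSH pig 2 it was -0.86 (edgeR unadjusted p = 0.0156, adjusted p = 0.946), and without control pig 2 it was -0.12. A second locus named LGR4 runs on the opposite strand over 68.2% of this span. It had between 2.41 and 5.50 FPKM and was highest in rpFSH pig 2 (5.50), control pig 2 (5.35) and control pigs 3 and 4 (5.06 and 5.04), and reads of the 2 loci cannot be told apart if strand was not used in counting.

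FZD1, a WNT receptor, lies on chromosome 9 (71349699 to 71354409, plus strand). The control pigs were close together at 8.07, 7.39, 8.42, 9.003 and 7.65 FPKM, whereas rpFSH pigs 1 to 5 had 6.34, 5.70, 10.5, 9.996 and 13.4. In the rpFSH treatment group, 2 pigs lay below all controls and 3 above all controls. The coefficient of variation was 7.87% among the controls and 34.5% among the rpFSH pigs, a difference in spread that was not tested. Means were 8.11 ± 0.638 and 9.17 ± 3.16 (two-sided exact permutation test, p = 0.508), with a log2 fold change of 0.25 (SE 0.23, 95% interval -0.25 to 0.75, edgeR unadjusted p = 0.291). CDK14 runs on the opposite strand over 33.8% of the FZD1 span (mean 1.77 FPKM, Spearman's rho with FZD1 0.539). The 2 loci may share reads if strand was not used in counting. Another locus that is not protein-coding also carries the name FZD1.

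FZD4, a receptor for WNT proteins and for norrin that mice need to form working corpora lutea, lies on chromosome 9 (20712615 to 20722592, minus strand). It was at 1.26, 16.4, 1.34, 8.24 and 14.5 FPKM in control pigs 1 to 5. In rpFSH pigs 1 to 5 it was at 13.2, 4.06, 17.6, 12.6 and 11.9. Control pigs 1 and 3 and rpFSH pig 2 were low, and the other 7 pigs lay between 8.24 and 17.6. These 3 pigs were among the 4 with the highest sums of theca markers (162, 251.9 and 147 FPKM), beside control pig 4 (207). INSL3 made up much of these sums (124, 181 and 110 FPKM in the 3 pigs), and PTCH1 was highest in the same 4 pigs. The other theca markers differed. NR2F2 was highest in rpFSH pig 3 (11.7). CYP17A1 was highest in control pig 3 (41.5) but lower in control pig 1 (8.28) than in rpFSH pig 5 (15.1). The granulosa marker FSHR was highest in the 3 pigs (7.02, 5.97 and 6.36), whereas INHA was highest in rpFSH pig 1 (68.7). A part of the theca or granulosa cells in the result was not tested. Means were 8.33 ± 7.09 for the controls and 11.9 ± 4.90 for the rpFSH pigs (two-sided exact permutation test, p = 0.381). The log2 fold change of 0.59 (SE 0.69, 95% interval -0.94 to 2.13, edgeR unadjusted p = 0.412) became 1.80 without control pigs 2 and 5 (unadjusted p = 0.0326, adjusted p = 0.728). It was 0.31 without control pig 1, 0.32 without control pig 3 and 0.99 without control pig 2. TMEM135 overlaps 6.48% of the FZD4 span on the opposite strand (mean 3.29 FPKM, Spearman's rho with FZD4 0.758), and whether reads are shared was not tested.

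SFRP1, the secreted antagonist, lies on chromosome 17 (10436411 to 10489755, minus strand) and had the highest mean FPKM of the 10 genes. Control pigs 1 to 5 had 29.1, 6.94, 21.4, 24.3 and 25.7 FPKM. The rpFSH pigs 1 to 5 had 10.9, 34.0, 13.4, 20.0 and 23.3. Low values were found in control pig 2 and rpFSH pigs 1 and 3, the 3 pigs with the lowest sums of theca markers (14.3, 36.2 and 19.5 FPKM). INSL3 and PTCH1 were lowest in these 3 pigs as well. The other theca markers differed: NR2F2 was highest in rpFSH pig 3 (11.7), and CYP17A1 was lower in control pig 5 (2.58) than in control pig 2 (5.46). A part of the theca cells in the SFRP1 level was not tested. Group means of 21.5 ± 8.59 and 20.3 ± 9.11 gave p = 0.833 by the two-sided exact permutation test, and the fold change was 0.999 with an interval from 0.542 to 1.84 (edgeR unadjusted p = 0.998).

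**Figure D3:**
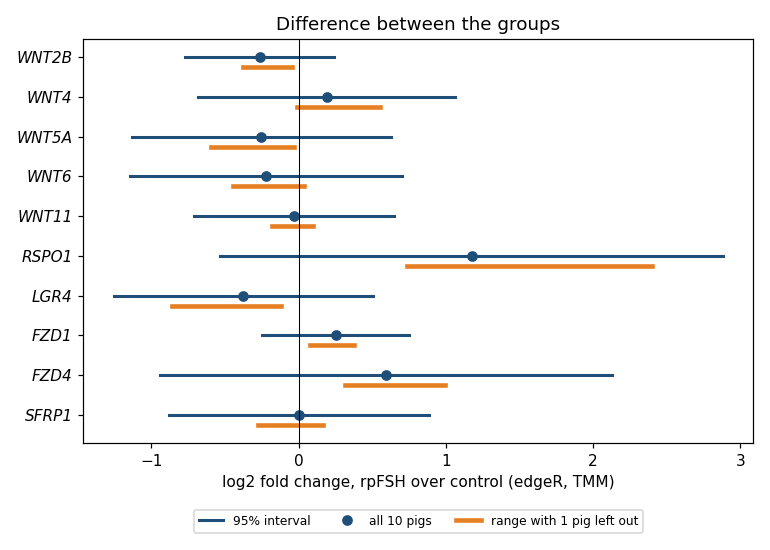
Log2 fold change of rpFSH over control by edgeR for the 10 genes, with the 95% interval (blue) and the range of the value when 1 pig at a time is left out (orange). All intervals include 0, and RSPO1 has the largest value (1.17) and the widest interval (-0.53 to 2.88).

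In the order of mean FPKM over the 10 pigs, SFRP1 came first (20.9 ± 8.37), followed by FZD4 (10.1 ± 6.04), FZD1 (8.64 ± 2.22), LGR4 (7.19 ± 3.59), WNT5A (3.70 ± 1.55), WNT2B (2.66 ± 0.820), WNT4 (0.630 ± 0.267), RSPO1 (0.530 ± 0.460), WNT6 (0.458 ± 0.197) and WNT11 (0.349 ± 0.0925). The antagonist and the 3 receptors thus stood above every ligand in the mean. FPKM divides by a length for each locus, and the lengths used were not checked, so the order depends on them. WNT2B had 3289 to 8561 counts per pig and WNT5A 675 to 3435, although WNT5A was higher in mean FPKM. Of the 9 steps between neighbours, 1 passed the two-sided exact sign-flip permutation test over pigs with adjustment over the 9 steps. This was the step from WNT2B down to WNT4, with a ratio of 4.40 (higher in 10 of 10 pigs, exact p = 0.00195, the smallest that 10 pigs allow, adjusted p = 0.0176). The step from LGR4 to WNT5A had a ratio of 1.94 (8 of 10 pigs, exact p = 0.0137, adjusted p = 0.0615), and the other 7 neighbouring pairs had adjusted p of at least 0.164. SFRP1 was the highest of the 10 genes in 7 pigs, and FZD4 was in control pig 2 and rpFSH pigs 1 and 3. In control pigs 1 and 3, FZD4 was only the sixth. Among all tested loci, the mean level of SFRP1 was above 96.7%, that of FZD4 above 91.3% and that of WNT11 above 12.4%.

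Across the 10 pigs, 45 pairs of the genes were correlated on log2 (FPKM + 1), and 24 coefficients were positive and 21 negative. After adjustment over the 45 pairs, 1 pair passed by Pearson's r and 0 by Spearman's rho. WNT4 and RSPO1 had r = 0.875 (permutation p = 0.00109, adjusted p = 0.0490) and rho = 0.782 (permutation p = 0.0105, adjusted p = 0.224). Without control pig 5 and rpFSH pig 3, the pigs farthest from the median of WNT4, r was 0.7098 (permutation p = 0.0536, adjusted p = 0.345, 8 pigs), so that the pair no longer passed, and whether the 2 pigs or the smaller number of pigs made the difference was not tested. With each pig set against the mean of its own group, r was 0.950 (permutation adjusted p = 0.0265) and rho was 0.964 (adjusted p = 0.0193). RSPO1 was counted at most 199 times and WNT4 at most 249 times in any pig.

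A further 6 pairs had an unadjusted permutation p under 0.05 for r (0.0114 to 0.0467) and missed the adjusted threshold, and none of them passed by rho (permutation adjusted p of at least 0.2235). FZD4 went with WNT4 (r = 0.758, rho = 0.830) and with RSPO1 (r = 0.725, rho = 0.758), each with permutation adjusted p of at least 0.213. LGR4 went against RSPO1 (r = -0.757, rho = -0.721) and against WNT4 (r = -0.662, rho = -0.612), with permutation adjusted p of at least 0.213 as well. WNT2B with WNT4 (r = 0.670, rho = 0.382) and WNT5A with WNT6 (r = 0.637, rho = 0.661) had permutation adjusted p of at least 0.277. All pairs share the same 10 libraries and their cell makeup. With the 2 farthest pigs left out, r was 0.843 for WNT4 with FZD4, 0.737 for RSPO1 with FZD4, -0.628 for RSPO1 with LGR4, -0.501 for WNT4 with LGR4, 0.459 for WNT2B with WNT4 and 0.595 for WNT5A with WNT6.

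**Figure D4:**
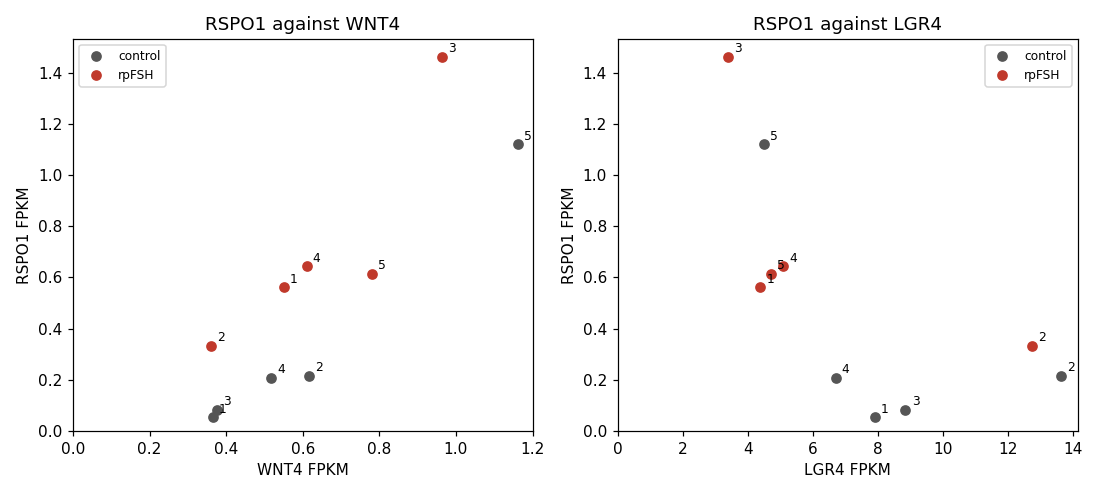
FPKM of RSPO1 against WNT4 (left) and against LGR4 (right) in each pig, with control pigs in grey, rpFSH pigs in red and replicate numbers beside the points. RSPO1 was highest in rpFSH pig 3 (1.46) and control pig 5 (1.12), which were also the 2 highest for WNT4, and the 2 pigs with the highest LGR4 (13.6 and 12.7) had RSPO1 at or under 0.333.

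The protein-coding locus most alike to each gene over the 10 pigs was sought among 11309 loci whose mean FPKM was at least 1, by Pearson's r on log2 (FPKM + 1), as a description. Each r is the highest of 11309 over only 10 pigs, and how high it would be by chance was not tested. Several other loci were nearly as alike to SFRP1, WNT6 and WNT2B as the locus named. FGFR2, a fibroblast growth factor receptor, was most alike to WNT4 (r = 0.973), and PDE3A, a phosphodiesterase, to RSPO1 (r = 0.923). IFT172, a part of the transport system in cilia, was most alike to WNT2B (r = 0.968). For the receptors, the closest loci were USP53 for FZD1 (r = 0.917), TCFL5 for FZD4 (r = 0.891) and TRIL for LGR4 (r = 0.935), and MEX3D was closest to SFRP1 (r = 0.969). Those of WNT5A (ENSSSCG00000034665, r = 0.962), WNT6 (ENSSSCG00000032937, r = 0.956) and WNT11 (ENSSSCG00000040416, r = 0.848) carry no symbol in the table.

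The other genes of the pathway were listed by role, and 91 of 93 were found in the table, of which 83 were tested. None had an adjusted p under 0.05, and 4 were higher and 2 lower with rpFSH at an unadjusted p under 0.05, beside 1.54 and 3.22% of all tested loci, respectively. Their median log2 fold change was 0.05. Without control pig 5, 8 were higher and 0 lower at the unadjusted level, beside 2.47 and 2.31% of all tested loci in that fit. Without rpFSH pig 4 these counts were 2 and 0, beside 1.12 and 2.57%. By list, members of the 10 genes included, 0 of 14 tested ligands and 0 of 22 tested genes of the beta-catenin core passed at the unadjusted level. At that level 1 of 10 receptors, 2 of 6 co-receptors and 1 of 15 antagonists passed, all higher. So did 1 of 7 genes of the R-spondin axis, 1 of 14 target genes and 1 of 11 planar polarity genes, all lower. The gene of the R-spondin axis and the target gene are the same, LGR5, which is on both lists.

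Among the co-receptors, LRP6, which pairs with frizzled proteins in the beta-catenin branch, had 10.1, 7.40, 9.82, 10.1 and 11.6 FPKM in control pigs 1 to 5. It had 11.3, 12.0, 15.7, 12.0 and 14.8 in rpFSH pigs 1 to 5. Of the rpFSH pigs, 4 were above all controls, and rpFSH pig 1 was below control pig 5. LRP6 had a log2 fold change of 0.50 (SE 0.16, edgeR unadjusted p = 0.00964, adjusted p = 0.992). ROR1, a receptor of WNT5A, had a log2 fold change of 0.53 (SE 0.22, unadjusted p = 0.0344, adjusted p = 1.00), and the receptor FZD7 had 0.68 (SE 0.27, unadjusted p = 0.0266, adjusted p = 0.992).

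DKK4, a secreted antagonist that binds LRP6, was under 0.5 FPKM in all pigs but rpFSH pig 3, and its groups did not overlap. Controls 2 to 5 had 0.0536, 0.141, 0.205 and 0.113 FPKM and control pig 1 had no count, while the rpFSH pigs had 0.393, 0.246, 2.70, 0.293 and 0.416. DKK4 had a log2 fold change of 2.93 (SE 0.96, edgeR unadjusted p = 0.0117, adjusted p = 0.992), and it was 1.66 (unadjusted p = 0.0568) without rpFSH pig 3. LGR5, another R-spondin receptor and a target gene of beta-catenin, was at 0.989 and 1.34 FPKM in control pigs 2 and 5 and at most 0.116 in the other pigs. Its log2 fold change was -3.19 (SE 1.40, unadjusted p = 0.0449, adjusted p = 1.00), and 0.14 without these 2 pigs, which had the highest sums of oviduct-type markers. CELSR2, a cadherin of planar polarity, had a log2 fold change of -0.42 (SE 0.16, unadjusted p = 0.0215, adjusted p = 0.992).

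By mean FPKM, the highest other ligand was WNT2 (4.33 ± 2.81 FPKM, SD, n = 10), followed by WNT9A (1.83 ± 0.599), so that the mean of WNT2 was above that of WNT5A. RSPO3 (1.63 ± 0.910) was above RSPO1 in the mean, and ZNRF3, a ligase that R-spondins act on, was at 1.57 ± 0.732. In counts the order can differ. ZNRF3 had 5722 to 21369 counts per pig against 142 to 706 for RSPO3, and DAAM1 had 18620 to 42845 against 2963 to 3963 for INVS. Among the receptors, FZD6 (7.94 ± 2.31) and FZD7 (6.34 ± 2.20) were near FZD1. The co-receptors LRP6 (11.5 ± 2.43) and PTK7 (9.64 ± 2.07) were at the level of the frizzled receptors. Of the genes listed as antagonists, DKK3 (51.7 ± 57.2) and FRZB (21.0 ± 11.05) were at or above SFRP1 in the mean. CTNNB1, which encodes beta-catenin, was at 19.2 ± 2.56 and the kinase CSNK1A1 at 10.5 ± 1.17. The targets FST and MYC were at 26.2 ± 17.6 and 7.48 ± 1.89, the polarity genes INVS and DAAM1 at 6.76 ± 0.833 and 3.84 ± 1.22, and the ligand secretion genes WLS and PORCN at 4.44 ± 2.00 and 1.06 ± 0.225. The locus of WLS also carries the name RPE65, so that its value may hold both.

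**Figure D5:**
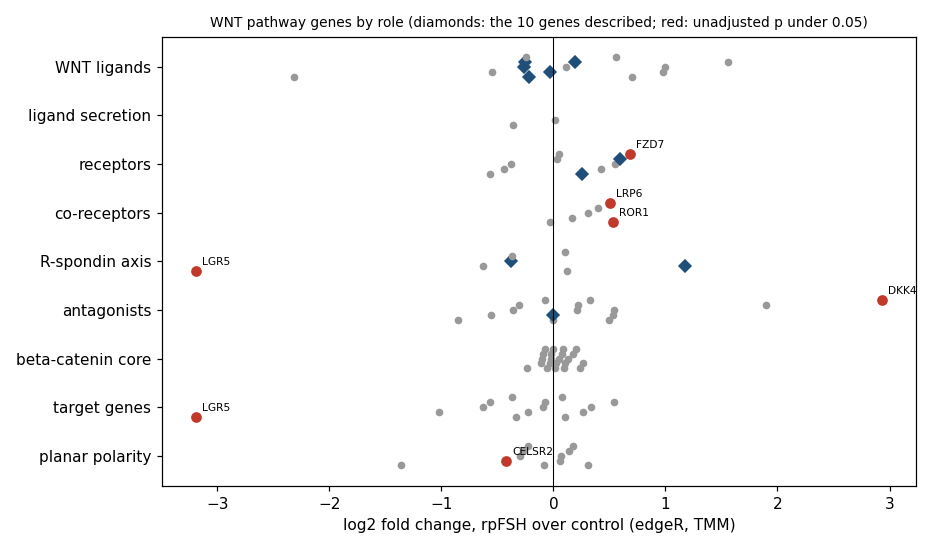
Log2 fold change of rpFSH over control by edgeR for the tested genes of each pathway list, with diamonds for the 10 genes described, red points for genes with an unadjusted p under 0.05 and grey points for the rest. A gene on several lists is drawn on each. The 10 genes lie between -0.38 (LGR4) and 1.17 (RSPO1), and DKK4 and LGR5 lie farthest out (2.93 and -3.19).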

How the data were processed

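Ovary RNA of 10 gilts was sequenced, 5 per group, without pooling, and groups follow the sample labels. The authors trimmed reads with Cutadapt, mapped them to Sscrofa11.1 and assembled transcripts with StringTie (HISAT2 2.0, StringTie 1.3.0 and Bowtie 0.12.2 in the submitters' processing notes). The deposited table gives an FPKM, estimated by the authors with StringTie and Ballgown, and a whole-number count per locus and pig. The paper describes second-strand synthesis with dUTP, as in stranded libraries. How the counts were made, and whether by strand, is not stated, so overlapping loci may share reads. The labels name poly(A) selection and the methods rRNA removal. The treatment label is spelled fpFSH, and the control label reads untreated. The labels do not say more about separate sampling than 1 library per pig.

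Counts of protein-coding loci whose mean FPKM reached 0.1 were fitted with edgeR 4.0.16 (TMM, glmQLFit, glmQLFTest) in R 4.3.3, in place of Ballgown, with Benjamini-Hochberg adjustment. Alternatives were RLE, upper-quartile and no scaling factors, DESeq2 1.42.0, limma 3.58.1 on log2 (FPKM + 1) or (FPKM + 0.1), with and without quantile normalization, other filters, a block for the replicate number, and fits without some pigs. Single genes were compared by exact permutation over 252 assignments, and correlations with 100000 permutations. Python 3.11.15, numpy 2.4.6, pandas 2.3.3 and scipy 1.17.1 were used. Leaving out control pig 2 with rpFSH pig 1 was chosen after seeing the data.

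The 10 genes and all lists were chosen with earlier results of these data known. Named beside them are pathway genes with an unadjusted p under 0.05 (at most 4 per list) and the locus most alike to each gene. The 2 genes with the highest mean FPKM per list are named as well. On simulated counts with 200 of 15170 loci changed by a log2 value of 2, edgeR, DESeq2 and limma recovered 97.5, 96.5 and 96.5%. These counts had the same dispersion at every locus and no variation shared between loci. The shares therefore do not give the power for the 10 genes, of which FZD4 and RSPO1 had an SE of 0.69 and 0.77. In these libraries 3 counts are 0.0399 to 0.0462 CPM, for counting error only. No sequences are printed.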

Additional observations from a re-analysis of the deposited data

Results flagged for a closer look

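In groups of 5 pigs, 3 of 20 sets of values (10 genes in 2 groups) held a pig set apart by Dixon's ratio, where chance flags about 1 in 20 groups. RSPO1 was at 1.121 FPKM in control pig 5, with the next control at 0.216. RSPO1 was at 1.463 FPKM in rpFSH pig 3, with the next pig of the group at 0.644. LGR4 was at 12.74 FPKM in rpFSH pig 2, with the next pig at 5.09.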

How the results depend on the processing

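None of the 10 genes had an adjusted p under 0.05 under any alternative run, and for RSPO1, LGR4, FZD1, FZD4 and WNT5A the direction was kept throughout. At an unadjusted p under 0.05, the number of the 10 genes was 1 with limma on log2 (FPKM + 0.1), 1 with limma on quantile-normalized values (RSPO1 in both), 2 without control pigs 2 and 5 (RSPO1 and FZD4), and 0 to 1 with 1 pig left out (RSPO1 without control pig 5, LGR4 without rpFSH pig 2). Without control pig 2 and rpFSH pig 1 it was 0. The other pathway genes lower with rpFSH numbered 1 by limma on log2 (FPKM + 1), 1 by limma with 0.1, 0 with quantile normalization, 1 at a mean FPKM of at least 1, 1 with the replicate block, and 0 to 3 with 1 pig left out. Those higher numbered 2 by limma on log2 (FPKM + 1) and 2 to 8 with 1 pig left out. The sign turned for WNT2B without control pigs 2 and 5 (0.0020), for WNT11 with quantile normalization (0.0259), for SFRP1 with RLE factors (0.0005), DESeq2 (0.0005) and no filter (0.0014), and for LGR5 without control pigs 2 and 5 (0.1432). With 1 pig left out, values were -0.0090 to 0.5551 for WNT4, -0.4492 to 0.0346 for WNT6, -0.1800 to 0.0945 for WNT11 and -0.2790 to 0.1641 for SFRP1. Pairs of genes with an adjusted p under 0.05 numbered 2 on log2 CPM and 0 without the 2 farthest pigs. The cause of these changes was not tested. Same-numbered pigs correlated at -0.294 to -0.0266, and 0 of 5 matched its own number best, so the numbers were not taken as pairs, and with the replicate block 370 loci had an unadjusted p under 0.05, against 722 without. WNT4, WNT6, WNT11 and RSPO1 lie under a mean FPKM of 1 and have no value there. Per pig they had 8 to 249 counts, yet the SE of WNT11 (0.31) was under that of SFRP1 (0.40), which had 2510 to 12633.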

Other observations

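Several other genes of the pathway were high in the pigs that stood apart by cell type markers. They were chosen after their values were seen and are given as values. DKK3 was at 195 FPKM in control pig 2 and 109 in rpFSH pig 1, which had the highest sums of luteal markers, and between 13.0 and 45.3 in the other pigs. DKK2, an antagonist that binds LRP proteins, was at 43.9 FPKM in rpFSH pig 1 and at most 6.07 in the other pigs, so that its log2 fold change of 1.90 (SE 0.99, edgeR unadjusted p = 0.0823, adjusted p = 1.00) stands beside 1 high pig.

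CELSR1, a cadherin of planar polarity, was at 3.63 FPKM in control pig 2 and 7.04 in control pig 5 and at most 1.25 in the other pigs, and WNT7B was at 0.291 and 0.983 there and at most 0.104 elsewhere. These are the 2 pigs with the highest sums of oviduct-type markers. The antagonists SFRP2 and SFRP4 were at 9.28 and 15.2 FPKM in control pig 5. In rpFSH pig 5, SFRP4 was at 11.0, and in rpFSH pig 3 at 6.655.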
